A study of Mus musculus with 108 samples.

Results

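Neurexins, cerebellins, neuroligins and LRRTM1 are proteins that span the synaptic cleft, and 9 of their genes were followed here: Nrxn2, Nrxn3, Cbln1, Cbln2, Cbln4, Nlgn1, Nlgn2, Nlgn3 and Lrrtm1. They are a list of symbols, drawn up with earlier results of these data known, and all 9 were found among the 53465 genes of a bulk RNA sequencing table of mouse brain. The study asked what loss of 1 copy of Cul3, a scaffold of ubiquitin ligases linked to autism, does to the developing brain. Cortex (CX), hippocampus (HIP) and cerebellum (CB) were taken from wild type (WT) and Cul3+/- mutant (HET) mice before birth (E17.5), postnatal day 7 (P7) and in the adult (P35), in 108 libraries from 36 mice. All mice had the background spelled C56Bl/6N in the labels and C57BL/6N by the study. Mutants carried a germline frameshift made by CRISPR in every cell type, so that a change in the brain cannot be tied to 1 cell type. The labels give no sex, though the study states that males and females of each genotype were used at each period. The mutants came from a single line. Each period and region had 6 WT and 6 HET mice at E17.5 and P7 and, after 2 adult mice were left out because their genotype differs between the labels and the study's own sample list, 5 and 5 in the adult, which leaves 102 libraries from 34 mice. The labels do not say that the mice came from separate litters.

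Neurexins are presynaptic receptors with several partners on the other side of the cleft. Neuroligins, the best known of these, bind neurexins directly, and NLGN1 is found mostly at excitatory and NLGN2 at inhibitory synapses, with NLGN3 at both. LRRTM1 is another postsynaptic neurexin ligand of excitatory synapses. Cerebellins are secreted and bridge neurexins to delta glutamate receptors, and CBLN1 from cerebellar granule cells is the textbook case.

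Libraries held 15126114 to 44411282 counts (median 32663960). Cul3 checked the genotype labels: its level in HET was between 50.1% and 61.0% of that in WT and the groups did not overlap in any of the 9 period and region datasets. Dissections followed their labels, since the summed level of 5 granule cell markers lay between 3661 and 4218 CPM (counts scaled to TMM-normalised library sizes) in adult WT CB and between 29.1 and 32.7 CPM in adult WT CX. The sum of 5 hippocampal field markers was 344 to 446 CPM in adult WT HIP and 23.6 to 26.03 CPM in adult WT CX. At E17.5 the regions were less far apart, with a granule cell marker sum of 286 to 508 CPM in WT HIP and 798 to 1286 CPM in WT CB. Striatal markers, 5 genes, summed to 64.3 to 77.7 CPM in adult WT CX and 14.6 to 21.4 CPM in adult WT HIP. Choroid plexus markers, 4 genes, varied most, with a sum of 4.04 to 4541 CPM among E17.5 WT HIP libraries and 3.34 to 2968 CPM among adult WT CB libraries. In whole tissue, fewer cells of a type and less RNA per cell cannot be told apart.

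Some libraries stood apart before any comparison was made. Among E17.5 mice, the names in the labels begin with S2, S3 or S4, a prefix whose meaning is not stated, with 2 WT and 2 HET mice each. In the 4 S3 mice, Cbln4 in CX lay between 0.870 and 1.33 CPM against 3.52 to 5.21 CPM in the other 8 mice, and Cbln4 in HIP lay between 0.436 and 1.06 CPM against 1.27 to 3.76 CPM. In S3 CX the genotypes were low alike for Cbln4 (0.948 and 1.33 CPM in WT, 1.33 and 0.870 CPM in HET). In S3 HIP its HET values (0.527 and 0.436 CPM) were below its WT values (1.06 and 0.711 CPM). Nrxn3 was also lower in S3 mice, at 27.7 to 52.2 CPM in CX against 55.6 to 77.4 CPM. In HIP it was 24.8 to 32.4 CPM in S3 mice against 38.3 to 128 CPM. Cbln2 in HIP was 1.18 to 2.59 CPM in S3 mice against 4.16 to 8.34 CPM, and Nlgn1 in HIP was also below without overlap, whereas for Cbln2 in CX a WT mouse named S2 was as low as the S3 mice. In CB the S3 libraries lay below the others for Cbln1 only (113.9 to 145 against 150.1 to 192 CPM), beside a granule cell marker sum of 692 to 803 against 984 to 1286 CPM, and Cbln2 was on average higher in them (39.0 against 25.1 CPM, overlapping). Marker sums moved with these genes. The sum of 4 general neuronal markers was 550 to 680.1 CPM in S3 CX against 739.9 to 972 CPM, and 299 to 568.2 CPM in S3 HIP against 514 to 862 CPM, where it overlapped. Markers of GABAergic neurons, 3 genes, were lower in S3 without overlap in CX (47.9 to 60.7 against 67.5 to 100.6 CPM) and HIP (25.01 to 39.9 against 63.04 to 186 CPM). The granule cell list (Gabra6, Fat2, Neurod1, Pax6 and Zic1) was drawn up for CB, and its sum in CX does not count granule cells. That sum was higher without overlap in S3 CX (157 to 190 against 66.2 to 141 CPM). Projection neuron markers were higher there on average (1265 against 1134 CPM, overlapping). The part of cell composition in the differences was not tested. Results at E17.5 that changed when the S3 mice were left out, a choice made after seeing the data, are given with both values.

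**Figure D1:**
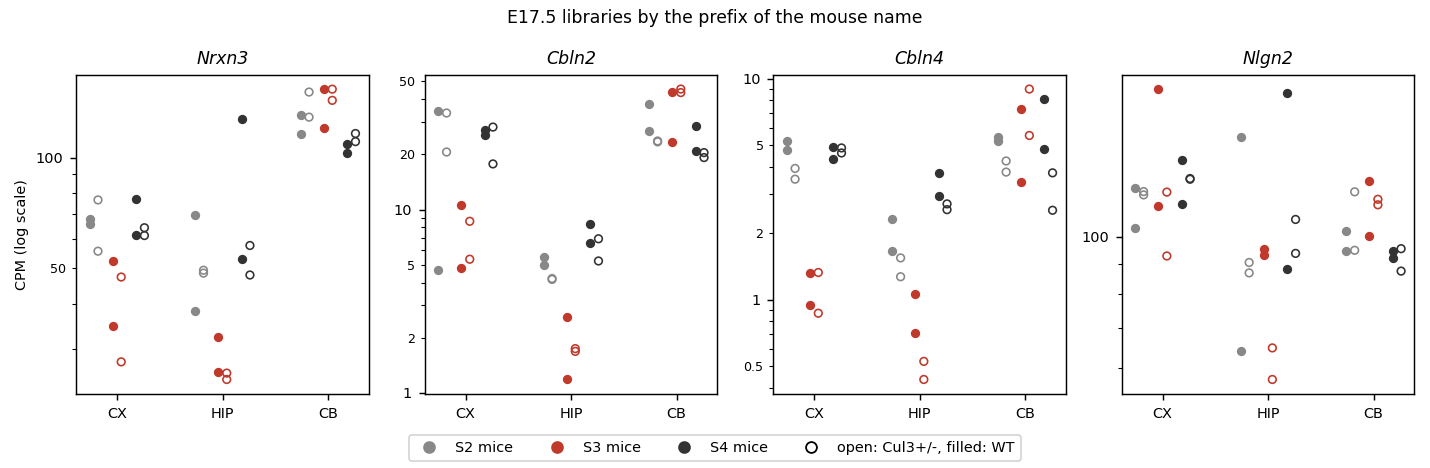
Level (CPM, log scale) of Nrxn3, Cbln2, Cbln4 and Nlgn2 in each E17.5 library, by region and by the prefix of the mouse name; filled points are WT, open points HET. The 4 S3 mice are the lowest for Nrxn3 and Cbln4 in CX and HIP, and they overlap the others for Nlgn2.

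In WT mice the 9 genes fell into those with a level that varied a few-fold over brain and time and those that varied far more. Between its highest and lowest of the 9 WT groups, Nlgn2 differed by 2.20-fold, Nlgn3 by 2.92-fold, Nrxn2 by 3.83-fold, Nrxn3 by 4.37-fold and Nlgn1 by 4.65-fold. Lrrtm1 differed by 17.7-fold, Cbln4 by 42.0-fold, Cbln2 by 307-fold and Cbln1 by 355-fold. Levels were also read per kilobase of exon, so that genes of unlike length can be compared. Cbln1 in adult CB was first at 241 ± 24 CPM per kb (SD, n = 5). Nlgn2 (24.5 ± 11) and Nrxn2 (22.5 ± 7.1) came next there by mean, each highest in WT replicate 3. In CX, Nlgn2 led at E17.5 (22.02 ± 4.7 CPM per kb, n = 6) and in the adult (25.04 ± 3.4, n = 5), and Nrxn2 at P7 (37.1 ± 5.8, n = 6). In HIP, Lrrtm1 led at P7 (29.1 ± 1.8, n = 6) and in the adult (28.1 ± 1.4, n = 5).

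**Figure D2:**
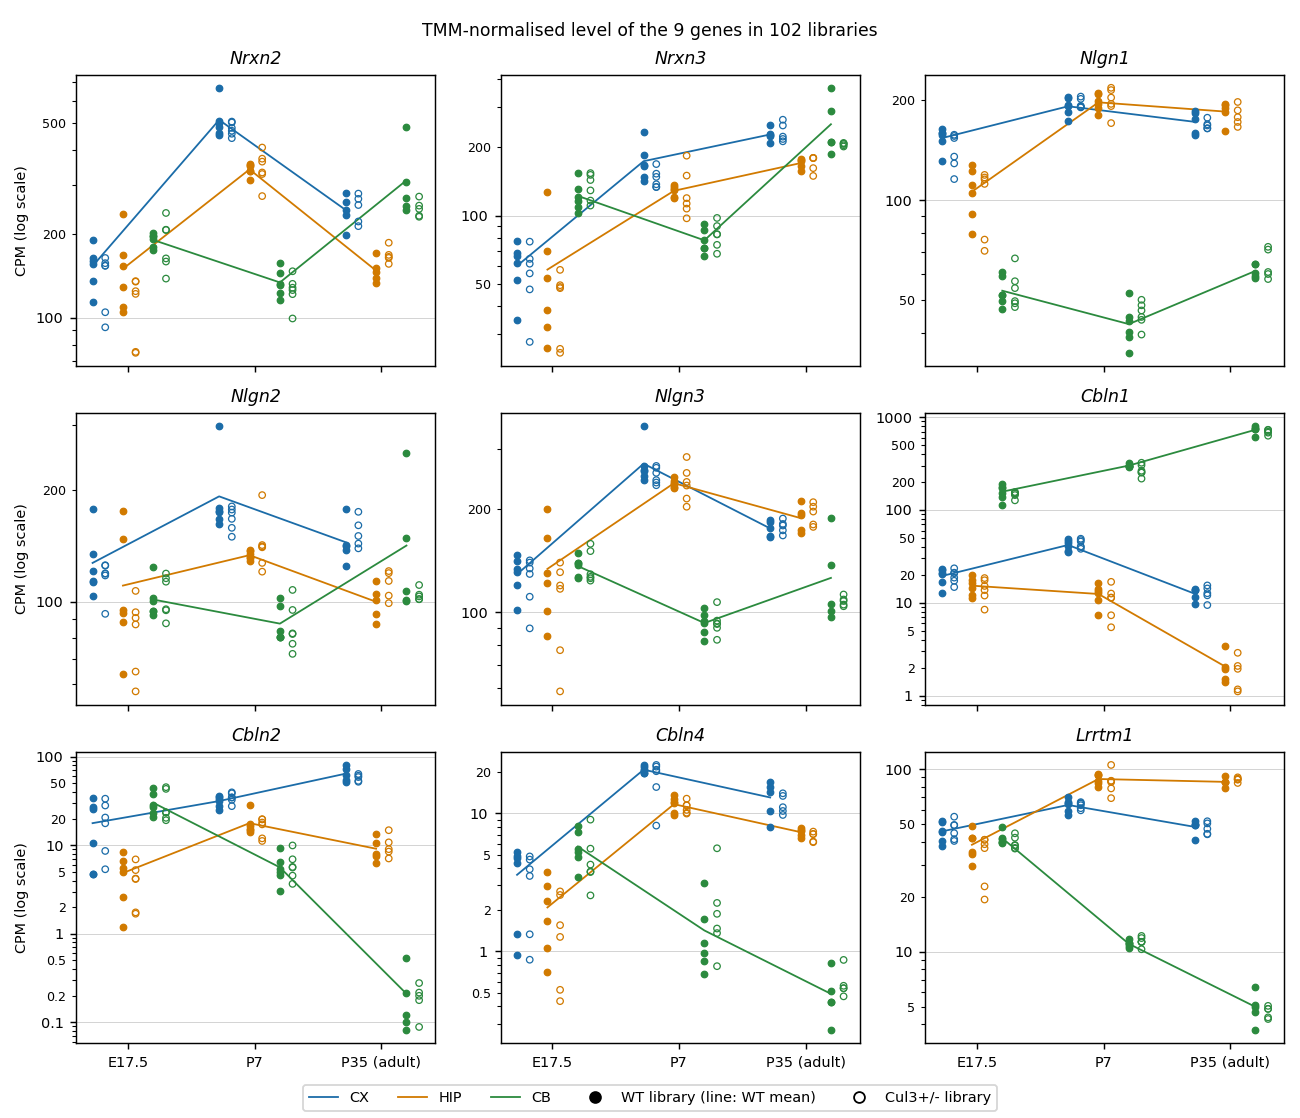
Level (CPM, log scale) of each gene in the 102 libraries by period, in CX (blue), HIP (orange) and CB (green); filled points are WT, open points HET, and lines join WT means. Cbln1 climbs in CB while Cbln2, Cbln4 and Lrrtm1 descend there, and filled and open points share their ranges throughout.

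Promoter sequences from RefSeq (GRCm38.p6; 250 bases before to 50 bases after a transcript start) were matched by symbol for 5 of the 9 genes. They are shown for Cbln4 and Lrrtm1, which descended together in CB, and for Nlgn2, the most even gene, with capitals marking the GC box GGGCGG on either strand.
Cbln4 (chr2:172043417-172043716, minus strand): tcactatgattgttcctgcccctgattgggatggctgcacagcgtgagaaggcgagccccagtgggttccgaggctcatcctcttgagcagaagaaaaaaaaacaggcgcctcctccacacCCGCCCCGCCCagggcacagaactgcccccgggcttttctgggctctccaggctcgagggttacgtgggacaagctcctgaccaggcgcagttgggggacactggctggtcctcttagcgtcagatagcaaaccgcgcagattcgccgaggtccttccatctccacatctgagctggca
Lrrtm1 (chr6:77242227-77242526, plus strand): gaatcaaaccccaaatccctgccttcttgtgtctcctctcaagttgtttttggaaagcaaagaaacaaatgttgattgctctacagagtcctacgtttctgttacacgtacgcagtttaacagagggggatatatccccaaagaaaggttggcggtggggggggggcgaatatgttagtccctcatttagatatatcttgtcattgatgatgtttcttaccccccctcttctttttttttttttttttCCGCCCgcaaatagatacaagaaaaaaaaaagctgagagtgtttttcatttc
Nlgn2 (chr11:69837735-69838034, minus strand): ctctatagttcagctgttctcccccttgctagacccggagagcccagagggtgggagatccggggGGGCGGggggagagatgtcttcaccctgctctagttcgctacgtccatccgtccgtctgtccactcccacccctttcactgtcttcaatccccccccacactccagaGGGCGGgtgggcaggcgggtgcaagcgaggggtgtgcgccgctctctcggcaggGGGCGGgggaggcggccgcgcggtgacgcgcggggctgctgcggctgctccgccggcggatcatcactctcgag
The GC box occurred 2 times in Cbln4, sharing a base, 1 time in Lrrtm1 and 3 times in Nlgn2. Of 32851 promoter windows of this length, 35.7% held it. GC content was 60.3% for Cbln4, 40.7% for Lrrtm1 and 68.7% for Nlgn2, beside a median of 52.7% over all windows. The E-box CANNTG, which 72.3% of windows held, was found 2 times in Cbln4 and 1 time each in Lrrtm1 and Nlgn2. None of these 3 windows held TATAAA (13.6% of windows) or the cyclic AMP element TGACGTCA (1.79%), and CCAAT (37.4%) was found 1 time, in Cbln4. The pair that moved alike in CB thus differed in base composition, and a match is only a description of letters.

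Tests between periods and regions used edgeR's quasi-likelihood test in WT libraries, with an adjusted p (Benjamini-Hochberg over all genes tested) of at most 0.1 and a change of at least 2-fold taken as the call. From E17.5 to P7, 5 of 9 genes rose in CX and none fell, where 22.9% and 14.5% of all genes tested did, and the median log2 change of the 9 was 1.02 against 0.01 over all genes. In HIP 5 rose and none fell, against 17.8% and 13.1% of all genes (30.9% together), with a median of 1.14 against 0.00. In CB the order was the opposite: none rose and 3 fell, against 10% and 10.1% of all genes (20.1% together), with a median of -0.57 against -0.01. From P7 to the adult, 1 rose and 2 fell in CX (10.3% and 11.6% of all genes), none rose and 2 fell in HIP (7.95% and 10.4%), and 3 rose and 3 fell in CB (16.6% and 17.7%). The median log2 change of the 9 over this step was -0.38 in CX, -0.39 in HIP and 0.54 in CB, beside -0.03, -0.01 and 0.01 over all genes. Without the S3 mice the HIP count of 5 became 4 and the CX count of 5 became 3, because Nlgn3 (log2 0.99) and Cbln1 (0.90) came under the 2-fold minimum.

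Against CX, 1 member was called in HIP at E17.5, 1 at P7 and 2 in the adult. Of all genes, 12.3%, 10.7% and 11.8% were called in either direction. At E17.5 none was higher and 1 lower, where 8.92% and 3.35% of all genes were, at P7 none and 1 (4.24% and 6.42%), and in the adult none and 2 (4.8% and 6.97%). In CB, 3 were higher and 1 lower than in CX at E17.5 (13.4% and 5.82% of all genes), 1 and 8 at P7 (14.7% and 18.3%), and 1 and 4 in the adult (11.6% and 15.8%). At P7 every member was thus called between CB and CX, and the median log2 difference of the 9 was -1.88 against 0.06 over all genes. Without the S3 mice the E17.5 count of 3 became 1, with Nrxn3 at 0.77 and Cbln2 at 0.49 on the log2 scale, and it was also 1 without E17.5 CX WT replicate 4. The median was 0.35 at E17.5 and -0.52 in the adult, beside -0.02 and 0.04 over all genes.

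**Figure D3:**
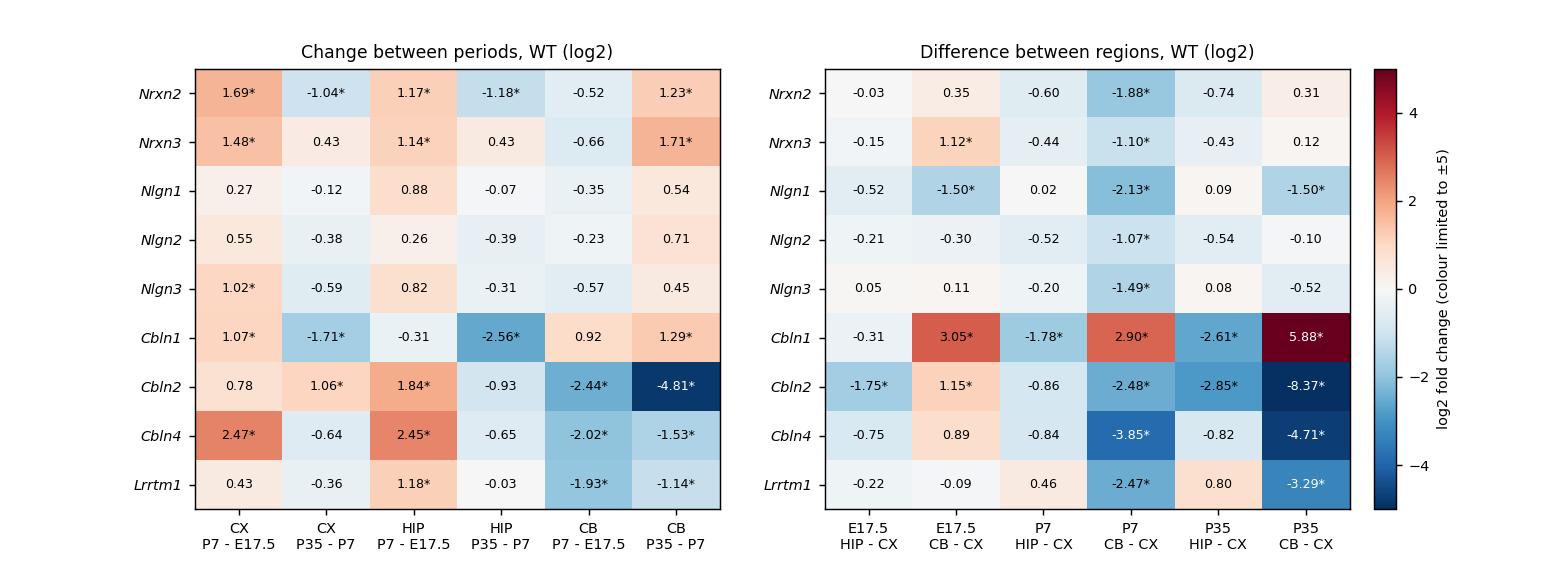
Log2 fold changes in WT mice for the 9 genes between consecutive periods (left) and between regions against CX (right), from the edgeR fits; an asterisk marks an adjusted p of at most 0.1 with at least a 2-fold change. All 9 genes carry an asterisk between CB and CX at P7, and Nlgn2 carries none between periods.

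Of the presynaptic receptors, Nrxn2 (chr19:6418731-6544169, GRCm38, plus strand) peaked at P7 in the forebrain and dipped at P7 in CB. In WT CX its lowest, median and highest values were 114, 158 and 191 CPM at E17.5 and 454, 492 and 669 CPM at P7. The 5 adult CX libraries held 199, 261, 280.4, 244 and 235 CPM. The P7 libraries were all above the others and the E17.5 libraries all below, with no overlap. The rise to P7 was 1.69 ± 0.12 (log2, SE; adjusted p = 3.9e-10) and the later fall -1.04 ± 0.12 (adjusted p = 8.5e-07), which came under the 2-fold minimum without P7 CX WT replicate 4 (-0.96) or adult CX WT replicate 1 (-0.97). In HIP the 2 steps were 1.17 ± 0.15 and -1.18 ± 0.16, and adult HIP was back at 148 ± 14 CPM (SD, n = 5) beside 149.9 ± 48 CPM (n = 6) at E17.5. In CB, P7 was the lowest group (134 ± 15 CPM, n = 6) and the gene rose from there to the adult by 1.23 ± 0.14 (adjusted p = 1.5e-07), to 270.1, 253, 482, 308 and 244 CPM. The third of these, WT replicate 3, was far above the other four.

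The Nrxn3 gene (chr12:88722876-90334935, plus strand) rose in the forebrain without the later fall. Values in WT CX ran from 34.8 to 77.4 CPM at E17.5 (median 63.8), from 143 to 234 CPM at P7 (median 166), and were 223, 228, 252, 225 and 209 CPM in the adult. E17.5 was below both later periods, which overlapped. Its change was 1.48 ± 0.15 to P7 (adjusted p = 5.1e-08) and 0.43 ± 0.15 to the adult, under the 2-fold minimum. In HIP it rose by 1.14 ± 0.27 to P7 (adjusted p = 0.00094), or 0.83 ± 0.22 and under the minimum without the S3 mice (0.99 without E17.5 HIP WT replicate 4). In CB it rose from P7 to the adult by 1.71 ± 0.15 (adjusted p = 5.6e-09), reaching 187, 211, 365, 288 and 211 CPM, again highest in WT replicate 3.

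Set against each other within a library, which needs no normalisation, the pair shifted toward Nrxn3 from P7 to the adult. The log2 ratio of Nrxn3 to Nrxn2 CPM in WT CX was -1.38 ± 0.25 (SD, n = 6) at E17.5, -1.57 ± 0.15 (n = 6) at P7 and -0.09 ± 0.15 (n = 5) in the adult. In HIP it was -1.53 ± 0.43, -1.41 ± 0.12 and 0.21 ± 0.13. The lowest adult value was above the highest value of either earlier period in both regions. The shift was smaller in CB, at -0.65 ± 0.18, -0.79 ± 0.07 and -0.30 ± 0.17, and CB had the highest ratio of the 3 regions at E17.5 and P7 but the lowest in the adult. HET libraries gave -0.08 ± 0.07 in adult CX, 0.01 ± 0.11 in adult HIP and -0.26 ± 0.12 in adult CB. Counts are summed per gene, so the long and short neurexin forms are not separated.

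**Figure D4:**
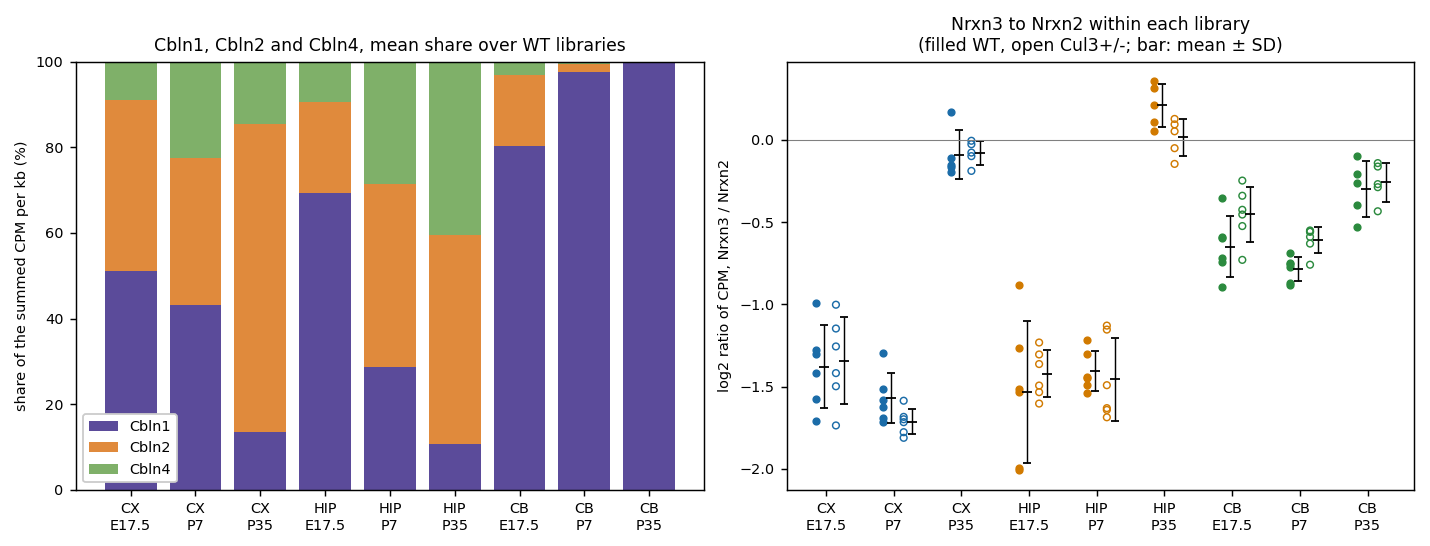
Left, mean share (%) of Cbln1, Cbln2 and Cbln4 in their summed CPM per kb in each WT group; right, log2 ratio of Nrxn3 to Nrxn2 CPM in every library (filled WT, open HET) with mean and SD. Cbln1 fills 99.9% of the adult CB bar and 13.5% of the adult CX bar, and the adult forebrain ratios sit near or above 0.

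Among the cerebellins, Cbln1 (chr8:87468405-87472609, minus strand), the ligand of granule cell synapses, was the gene that rose most steadily in CB. Its WT CB values ran from 114 to 192 CPM at E17.5 (median 163) and from 292 to 321 CPM at P7 (median 297), and were 795, 759, 741, 607 and 751 CPM in the adult. No 2 periods overlapped. The step to P7, 0.92 ± 0.10 (adjusted p = 2e-07), was under the 2-fold minimum, and the step to the adult was a rise of 1.29 ± 0.10 (adjusted p = 1.2e-09). The forebrain went the other way after P7. In CX the gene rose to 41.9 ± 5.7 CPM (n = 6) at P7, by 1.07 ± 0.14 (0.97 and under the minimum without E17.5 CX WT replicate 3), and fell to 12.5 ± 1.9 CPM (n = 5), by -1.71 ± 0.15 (adjusted p = 1.3e-08). In HIP it fell to 1.497, 1.41, 1.94, 3.40 and 2.04 CPM in the adult, a change from P7 of -2.56 ± 0.24 (adjusted p = 6.6e-08). Adult CB exceeded adult CX by 5.88 ± 0.18 on the log2 scale (adjusted p = 1.3e-11), and adult HIP was lower than adult CX by -2.61 ± 0.19. Granule cell markers moved with it in WT CB, with a sum of 798 to 1286 CPM at E17.5, 2347 to 2566 CPM at P7 and 3661 to 4218 CPM in the adult, and their part in the rise was not tested.

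Cbln2, on chromosome 18, was nearly lost from CB as it accumulated in CX. In WT CB it ran from 20.8 to 43.9 CPM at E17.5 (median 27.7) and from 3.01 to 9.33 CPM at P7 (median 5.18), and the adult libraries held 0.214, 0.102, 0.533, 0.0819 and 0.120 CPM. The lowest of these is 3 counts, so the adult value is set by few reads. The changes were -2.44 ± 0.25 to P7 (adjusted p = 1.1e-07) and -4.81 ± 0.42 to the adult (adjusted p = 4.1e-09). In CX the adult libraries held 54.5, 73.6, 51.8, 80.9 and 61.6 CPM, above P7 (24.9 to 36.2 CPM) without overlap. That rise, 1.06 ± 0.39 (adjusted p = 0.024), came under the 2-fold minimum without adult CX WT replicate 4 (0.97). Within the forebrain, adult HIP held 7.58, 10.5, 6.26, 13.4 and 8.00 CPM, lower than adult CX by -2.85 ± 0.18 (adjusted p = 6.3e-08). At E17.5, HIP was also lower than CX (-1.75 ± 0.44, adjusted p = 0.0067), while CB was higher (1.15 ± 0.43, adjusted p = 0.037), a call lost without the mouse term (0.79, adjusted p = 0.155) and without the S3 mice (0.49, adjusted p = 0.41). Among E17.5 WT CX libraries Cbln2 ran from 4.69 to 34.3 CPM, the widest spread of any cortical group relative to its mean for this gene.

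Cbln4 (chr2:172036233-172043466, minus strand), found in subsets of neurons, fell with Cbln2 in CB at both steps. WT CX values were 0.948 to 5.21 CPM at E17.5 (median 4.54), 19.5 to 22.3 CPM at P7 (median 20.7), and 14.4, 7.95, 10.4, 16.9 and 15.5 CPM in the adult. P7 stood above both other periods. The rise to P7 was 2.47 ± 0.31 in CX (adjusted p = 9.5e-07) and 2.45 ± 0.26 in HIP (adjusted p = 1.4e-07). In CB it fell by 2.02 ± 0.32 to P7 (adjusted p = 1.8e-05), a log2 change, and again by 1.53 ± 0.39 (adjusted p = 0.0018), to 0.427, 0.431, 0.817, 0.518 and 0.270 CPM in the adult. Adult CB was lower than adult CX by -4.71 ± 0.26 (adjusted p = 4.1e-09).

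The shares of these 3 genes moved with their opposite courses. The fourth cerebellin gene, Cbln3, is not among the 9 and is left out of the sum. Of the summed CPM per kb of Cbln1, Cbln2 and Cbln4, Cbln1 took 80.4% ± 5.5 (SD, n = 6) in WT CB at E17.5, 97.6% ± 1.0 (n = 6) at P7 and 99.9% ± 0.053 (n = 5) in the adult. In CX it took 51.0% ± 15, 43.2% ± 2.2 and 13.5% ± 2.7, and Cbln2 took 71.9% ± 5.5 in the adult. Adult HIP was divided between Cbln2 (48.9% ± 6.4) and Cbln4 (40.6% ± 7.2), with 10.6% ± 2.9 for Cbln1. The share of Cbln1 was 99.8% to 99.9% in the adult WT CB libraries and 6.82% to 17.3% in those of the forebrain.

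On the postsynaptic side, Nlgn1 (chr3:25426215-26332460, minus strand), the neuroligin of excitatory synapses, marked forebrain against CB and changed little with age. In the adult the WT libraries held 183, 176, 159.6, 186 and 158 CPM in CX, 190.1, 184, 196, 162 and 194 CPM in HIP, and 58.3, 64.4, 59.2, 60.6 and 64.4 CPM in CB. The CB libraries were all below the forebrain libraries. CB was lower than CX by -1.50 ± 0.09 at E17.5 (adjusted p = 1.1e-08), -2.13 ± 0.07 at P7 (adjusted p = 1.9e-13) and -1.50 ± 0.07 in the adult (adjusted p = 4.9e-10). None of its changes between periods reached 2-fold, the nearest being 0.88 ± 0.09 from E17.5 to P7 in HIP (adjusted p = 1.4e-07).

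Nlgn2 (chr11:69823122-69837784, minus strand), the neuroligin of inhibitory synapses, was the most even of the 9. No pair of neighbours in the order of its 9 WT group means was apart in range, and the means lay between 87.4 ± 9.9 CPM (P7 CB, n = 6) and 193 ± 52 CPM (P7 CX, n = 6). Its 1 call was at P7, where CB was lower than CX by -1.07 ± 0.11 (adjusted p = 4.1e-07). Without P7 CX WT replicate 4, the highest library at 298 CPM, the difference was -0.97 and under the 2-fold minimum. The log2 ratio of Nlgn1 to Nlgn2 within a library was 0.89 ± 0.12 (SD, n = 5) in adult WT HIP, 0.26 ± 0.28 in adult CX and -1.11 ± 0.60 in adult CB, where the lowest HIP value (0.78) was above the highest CX value (0.55).

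Nlgn3 (chrX:101299168-101325963, plus strand), which is found at both kinds of synapse, peaked at P7 in CX and HIP. WT CX values were 102 to 147 CPM at E17.5 (median 133), 243 to 349 CPM at P7 (median 260.0), and 167, 184, 186, 176 and 166 CPM in the adult, with no overlap between periods. The rise to P7 in CX was 1.02 ± 0.09 (adjusted p = 8.7e-09), near the minimum and under it without any of 3 single libraries (E17.5 CX WT replicates 1 and 4, P7 CX WT replicate 4, 0.95 to 0.996). At P7, CB was lower than CX by -1.49 ± 0.07 (adjusted p = 4.9e-11). Gm21986, annotated as a processed transcript, shares 3823 exon bases with Nlgn3 on its strand, so reads could be divided between them. Gm21986 held 5955 counts in total, beside 1698 to 12034 counts of Nlgn3 in a single library.

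Lrrtm1 (chr6:77242689-77257791, plus strand), the leucine-rich repeat ligand, lies within the span of Ctnna2 on the other strand and shares no exon bases with it. Its ranges overlapped before birth and parted afterwards. At E17.5 the WT libraries ran from 38.0 to 52.2 CPM in CX, 29.4 to 48.7 CPM in HIP and 39.4 to 48.3 CPM in CB, and all 3 ranges overlapped. At P7 they ran from 56.0 to 70.3, 80.1 to 93.5 and 10.5 to 11.7 CPM, with none overlapping. Adult libraries held 40.9, 49.4, 49.8, 52.0 and 49.3 CPM in CX, 85.6, 85.0, 91.1, 78.9 and 85.2 CPM in HIP, and 5.12, 3.73, 6.40, 4.69 and 5.01 CPM in CB. The 3 regions were again apart. Lrrtm1 rose in HIP to P7 by 1.18 ± 0.09 (adjusted p = 3.3e-09) and fell in CB by 1.93 ± 0.09 to P7 (log2, adjusted p = 2.4e-12) and by 1.14 ± 0.10 to the adult (adjusted p = 2.8e-09). Adult HIP exceeded adult CX by 0.80 ± 0.09 (adjusted p = 1.4e-05), under the 2-fold minimum, and adult CB was lower than adult CX by -3.29 ± 0.11 (adjusted p = 2e-11). The projection neuron markers, of which Slc17a7 is also used by granule cells, summed to 1087 to 1349 CPM in adult WT CX and 431 to 597 CPM in adult WT CB, and their part in the difference was not tested.

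Whether a course over time differed between regions was tested as an interaction within mice, again with a 2-fold minimum. From E17.5 to P7, the signed change in CB was lower than that in CX for 6 of 9 members and higher for none, against 21.9% and 12.8% of all genes, with a median of -2.20 against -0.01 over all genes. In all 6 the estimated change was positive in CX and negative in CB, as for Lrrtm1 (0.43 and -1.93) and Cbln2 (0.78 and -2.44). The differences were -2.23 ± 0.17 for Nrxn2, -2.20 ± 0.28 for Nrxn3, -1.59 ± 0.17 for Nlgn3, -3.60 ± 0.45 for Cbln2, -4.71 ± 0.40 for Cbln4 and -2.37 ± 0.11 for Lrrtm1 (adjusted p of 3.3e-08 or less). From P7 to the adult, the signed change in CB was higher than that in CX for 4 and lower for 1 (13.3% and 13.7% of all genes). Nrxn2 (2.23 ± 0.18), Nrxn3 (1.24 ± 0.29), Nlgn3 (1.0004 ± 0.18) and Cbln1 (3.02 ± 0.22) were the 4, and Cbln2 (-5.85 ± 0.64) the other. Nlgn3 changed by -0.59 in CX and 0.45 in CB, and Cbln2 by 1.06 and -4.81. The value of Nlgn3 sits on the minimum and came under it in 11 of the 17 fits that left out a single mouse, down to 0.82. HIP differed from CX in 1 member at each step, Cbln1 (-1.42 ± 0.21) to P7, where 8.77% of all genes had a lower change in HIP, and Cbln2 (-2.01 ± 0.45) to the adult, where 2.87% did.

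Cul3+/- and WT mice were then compared within each period and region. edgeR's quasi-likelihood test called none of the 9 genes in any dataset at an adjusted p of 0.1, and DESeq2 called none of the 9 either. Of all genes tested edgeR called 1 in each, Cul3, which was 0.00603% in CX, 0.00586% in HIP and 0.00568% in CB at E17.5, 0.00566%, 0.00563% and 0.0057% at P7, and 0.00569%, 0.00584% and 0.00584% in the adult. In all 81 combinations of gene and dataset the WT and HET ranges overlapped. The share of all genes that overlapped was not counted, so this does not set the members apart. The log2 fold changes ran from -0.48 to 0.66 over the 80 tests made, with a median SE of 0.10, and the smallest adjusted p was 0.348. Cbln2 in adult CB was too low to be tested. At an unadjusted p under 0.05 there were 4 values, Nrxn3 in P7 CX, Nrxn2 and Nlgn2 in adult HIP and Nrxn2 in adult CB. Of all genes in these 3 datasets, 3.22%, 6.25% and 14.4% had such a p. These data do not show that the genes were equal, since SEs reached 0.56 for Cbln2 in E17.5 CX.

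The smallest unadjusted p belonged to Nrxn2 in adult HIP. HET libraries held 186, 165, 164, 168 and 156 CPM and WT libraries 150.3, 133, 170.2, 146 and 139 CPM. All HET values were above 4 of the 5 WT values, and the remaining one, WT replicate 3, lay among them. The log2 fold change was 0.19 ± 0.06 (edgeR adjusted p = 0.796). Nlgn2 in the same tissue gave 0.16 ± 0.07 (edgeR adjusted p = 0.796), and the 9 genes had a median of 0.04 against 0.00 over all genes, where 6.25% of all genes had a p under 0.05.

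In adult CB, Nrxn2 gave -0.36 ± 0.16 (edgeR adjusted p = 0.348), with 232, 272, 230.4, 246 and 253 CPM in HET and the WT values given above. Nlgn2 was similar, at 103, 111, 102, 105 and 102 CPM in HET and 101, 107, 252, 149 and 101 CPM in WT (-0.46, edgeR adjusted p = 0.352). Of all genes tested in this dataset, 14.4% had a p under 0.05. HET values were tight, and in WT 2 libraries, replicates 3 and 5, were above all of them for Nlgn2. Without WT replicate 3 the values were -0.15 for Nrxn2 (edgeR adjusted p = 0.448), -0.15 for Nrxn3, -0.16 for Nlgn2 and -0.06 for Nlgn3. WT replicate 3 was the highest WT library for 7 of the 9 genes in CB, and the samples of the same mouse were the highest for 4 in CX and 5 in HIP, with Nrxn2, Nlgn2 and Nlgn3 in all 3 regions.

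At P7 in CX, Nrxn3 gave -0.25 ± 0.10 (edgeR adjusted p = 0.900). HET ran from 134 to 169 CPM (median 143) and WT from 143 to 234 CPM (median 166), with WT replicates 1 (185 CPM) and 4 (234 CPM) above all HET values. Without replicate 4 the value was -0.15, and its unadjusted p was no longer under 0.05. Replicate 4 was also the highest WT library for Nrxn2, Nlgn2, Nlgn3 and Lrrtm1.

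In E17.5 HIP all 9 genes had a negative log2 fold change, with a median of -0.33 against 0.00 over all genes, yet none had a p under 0.05. Nrxn2 was nearest, with 105 to 235 CPM (median 141) in WT and 74.8 to 135 CPM (median 123) in HET, a value of -0.44 ± 0.21 (edgeR adjusted p = 0.941). The median was -0.20 without WT replicate 6, which was the highest WT library for 5 of the 9. The S3 HET libraries, replicates 3 and 4, were below all WT libraries for Nrxn2 (74.8 and 75.4 CPM) and Lrrtm1 (19.3 and 22.8 CPM). They were also below all WT libraries for Nrxn3, Nlgn1, Nlgn3 and Cbln4, but not for Nlgn2, Cbln1 and Cbln2. The S3 WT libraries held 129 and 105 CPM of Nrxn2, and 41.9 and 34.3 CPM of Lrrtm1. In the 5 datasets not described above no member had an unadjusted p under 0.05, and the medians of the 9 lay between -0.12 and 0.07. The smallest p there belonged to Nlgn1 in E17.5 CX (-0.13 ± 0.09), Nrxn3 in E17.5 CB (0.15 ± 0.11), Nlgn2 in P7 HIP (0.11 ± 0.09), Cbln1 in P7 CB (-0.14 ± 0.07) and Cbln2 in adult CX (-0.14 ± 0.11), with edgeR adjusted p between 0.833 and 0.997.

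**Figure D5:**
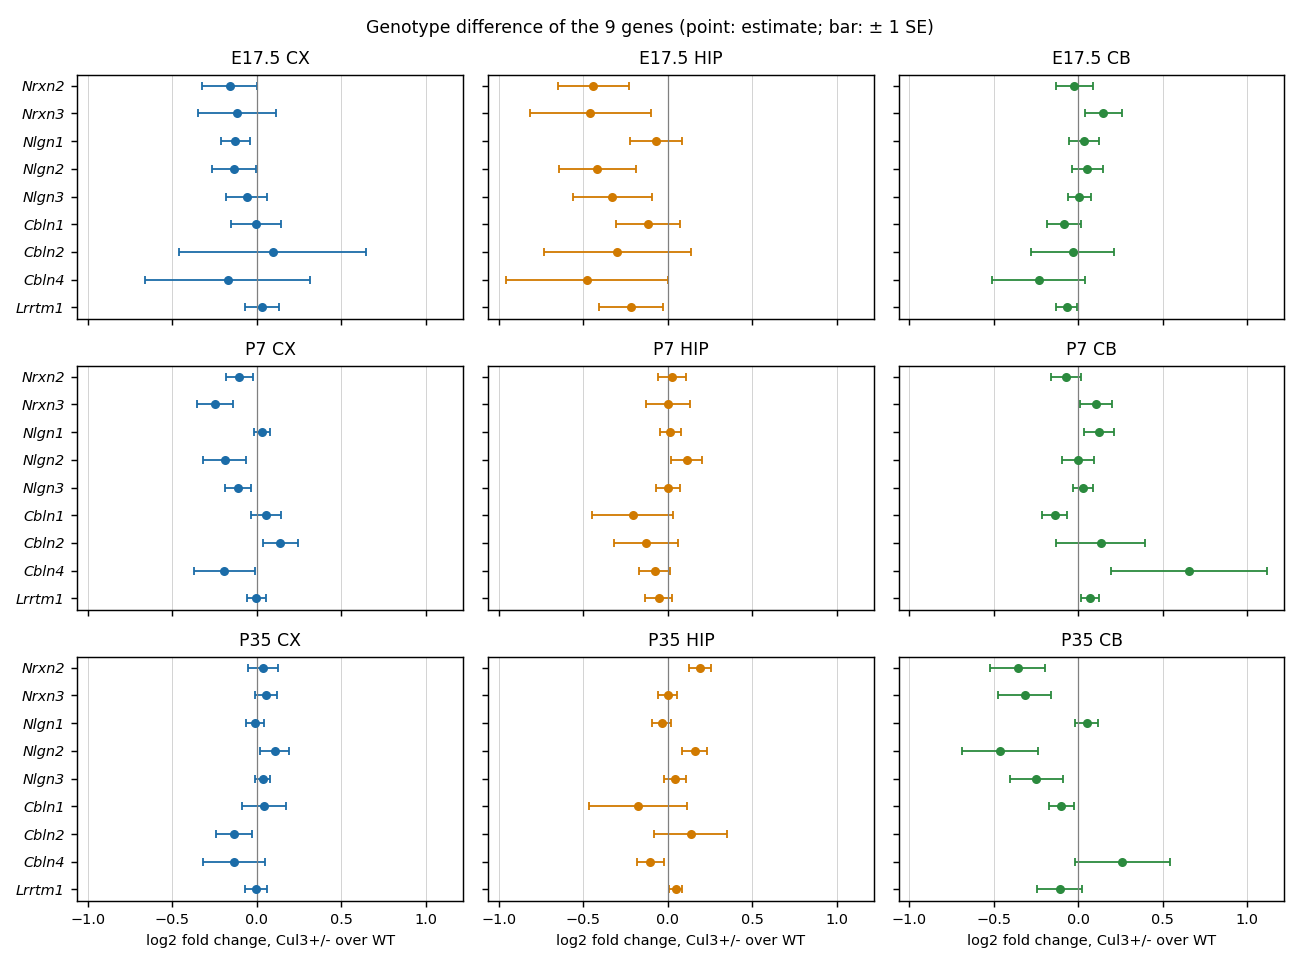
Log2 fold change of Cul3+/- over WT for the 9 genes in each period and region, from edgeR, with bars of 1 SE. The 80 estimates lie between -0.48 and 0.66, those of Cbln2 and Cbln4 have the widest bars, and all points in E17.5 HIP lie below 0.

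A list of 28 binding partners and organisers of the same synapses gave a setting for these values. Over the step from E17.5 to P7 in CX, 9 of 28 rose and 3 fell (22.9% and 14.5% of all genes), among them Clstn3 (2.24), a postsynaptic organiser, and Grid1 (1.92), a delta glutamate receptor. In HIP 9 of 28 rose and 3 fell (17.8% and 13.1% of all genes), and in CB 3 of 27 tested rose and 3 fell (10% and 10.1%). Cbln3, the granule cell cerebellin that pairs with CBLN1, rose in CB by 4.09 to P7 and by 5.17 to the adult. In the adult 2 of 28 were higher and 12 lower in CB than in CX (11.6% and 15.8% of all genes), with Cbln3 (11.65) and Nxph4 (2.00), a neurexophilin, the 2 that were higher. Lrrtm4 (-3.11) and Lrrtm2 (-1.18), relatives of Lrrtm1, and C1ql3 (-3.75), a secreted relative of the cerebellins, were among the lower. The partners' median log2 difference there was -0.95 against 0.04 over all genes. Between genotypes edgeR called none of the 28 in any dataset, with 0 to 3 at an unadjusted p under 0.05 in each. Of all genes, 1.67% (E17.5 CX) to 14.4% (adult CB) had such a p. The highest number, 3, came in adult HIP (of 27 tested, beside 6.25% of all genes) and adult CB (of 26 tested, beside 14.4%).

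The genes whose mean level followed each member most closely over the 9 WT groups were read off as Pearson's r of mean log2 CPM, a description in which groups share mice and regions. Cbln4 was most like Sstr1 (r = 0.99), a somatostatin receptor, then Alcam and Prss12 (0.98 each), and Lrrtm1 most like Efna3 (0.99), Slit1 (0.99) and Trpc4 (0.98). Nlgn1 was nearest to Npr3 (0.99), Lix1 (0.98) and Kcng1 (0.97), and Nlgn3 to Agk (0.98), Trpc5 (0.98) and Msantd1 (0.97). Nrxn3 followed Pde4b, C1qtnf4 and Sez6l2 (0.98 each), Nlgn2 followed Atxn2 (0.98), Eif4g3 (0.98) and Rnd1 (0.97), and Nrxn2 followed Tmub1 (0.97), Scrn1 (0.95) and Fam49b (0.93). Cbln2 was nearest to Rcan1 (0.97), Dscam (0.96) and Ptpn5 (0.96), and Cbln1 to Cry1 (0.96), Usp6nl (0.96) and Angel1 (0.94). Among the members themselves the highest values were Nlgn2 with Nrxn2 (0.88), Cbln4 with Cbln2 (0.87) and Cbln4 with Lrrtm1 (0.87). The lowest was Cbln1 with Lrrtm1 (-0.85).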

How the data were processed

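Libraries of the 3 regions were made with a stranded, ribosome-depleted kit. The deposited values are expected counts per gene, which the authors made with Cutadapt 1.14, STAR 2.5.3a and RSEM 1.3 on GRCm38.p5 (mm10). The strand setting of the counting is not given in the sources used here. Of the values, 5.76% were not whole and all were rounded. Symbols were matched to 53274 of 53465 genes. Levels are CPM on TMM library sizes (edgeR 4.0.16, R 4.3.3). Genes were filtered with filterByExpr (minimum count 10). Genotype was tested within each period and region, without the study's removal of unwanted variation and without sex, which the study's model held. WT periods were tested within a region, and WT regions and interactions with the mouse as a term. Benjamini-Hochberg adjustment was over all genes tested, at 0.1, with a 2-fold minimum except for genotype. DESeq2 1.42.0, RLE factors, no filter, a replicate block and leaving out single mice were alternatives.

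The members and lists were chosen with earlier results of these data known. Named were all members, the smallest p in each genotype dataset, the 3 genes most like each member (at least 5 CPM in a WT group), and a list of 28 partners (others of the list are not reported here), of which the few printed were picked after their values were seen. No 2 replicates agreed within sampling noise. Same-numbered WT and HET samples deviated together with a correlation above 0.1 in all 6 pairs in E17.5 CX (0.11 to 0.76). Numbers coincide with the name prefixes there. All pairs were also positive in P7 CX (0.087 to 0.33) and adult CX (0.012 to 0.27), though not all were above 0.1. In E17.5 HIP (median 0.335) and E17.5 CB (median 0.292), 5 of 6 pairs each were above 0.1. P7 HIP had the lowest median (-0.064), with 1 of 6 pairs above 0.1. With a replicate block, the genes called between genotypes in E17.5 CX went from 1 to 55, none of them a member. The genotype fits for P7 CX (17675 genes) and adult CB (17110 genes) were tested on simulated data with 200 changed genes. In P7 CX, 74.6% of genes changed by 0.5 on the log2 scale and 89.6% of those changed by 1 were recovered. In adult CB the values were 62.7% and 89.6%. In the data themselves edgeR called 1 gene in P7 CX and 1 in adult CB. With fewer genes changed the adjustment asks for a smaller p, so these percentages do not give the power for a member.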

Additional observations from a re-analysis of the deposited data

Results flagged for a closer look

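In 14 of the 162 groups of 5 or 6 libraries, the highest or lowest library lay farther from the rest than Dixon's 95% value allows, where chance would give about 1 in 20, or 8.1 groups. WT replicate 4 of P7 CX was high for Nrxn2 (669 CPM against 454 to 510 CPM in the others), Nlgn2 (298 against 162 to 179 CPM) and Nlgn3 (349 against 243 to 267 CPM). Adult CB WT replicate 3 was high for Nrxn2 (482 against 244 to 308 CPM), and replicate 5 low for Cbln1 (607 against 741 to 795 CPM). For Nlgn2, E17.5 CX HET replicate 4 was low (92.9 CPM), and E17.5 CB WT replicate 4 (125 CPM) and P7 HIP HET replicate 3 (194 CPM) were high. For the cerebellins, P7 CB WT replicate 3 was high in Cbln1 (321 CPM), P7 HIP WT replicate 6 in Cbln2 (28.7 CPM against 14.01 to 17.4 CPM), and P7 CB HET replicate 2 (5.58 CPM) and adult CB HET replicate 5 (0.867 CPM) in Cbln4. Lrrtm1 was high in E17.5 CB WT replicate 6 (48.3 CPM) and low in adult CX WT replicate 1 (40.9 CPM against 49.3 to 52.0 CPM).

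Of 36 tests of whether a course over time differed from that in CX, 13 passed in WT mice. Of all genes, 34.8% passed in CB from E17.5 to P7 and 27% from P7 to the adult. In HIP 11.4% and 5.17% of all genes did. From E17.5 to P7 the change in CB minus that in CX was -2.23 for Nrxn2, -2.20 for Nrxn3, -1.59 for Nlgn3, -3.60 for Cbln2, -4.71 for Cbln4 and -2.37 for Lrrtm1 on the log2 scale. From P7 to the adult it was 2.23 for Nrxn2, 1.24 for Nrxn3, 1.0004 for Nlgn3, 3.02 for Cbln1 and -5.85 for Cbln2. In HIP, Cbln1 differed by -1.42 over the first step and Cbln2 by -2.01 over the second.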

How the results depend on the processing

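No genotype result of the 9 genes was called under any alternative tried: RLE size factors, DESeq2, no filter on low counts, a replicate block, both disputed adult mice put back, the name prefix as a term, the S3 mice left out, or any single mouse left out. Leaving out the S3 mice, chosen after seeing the data, moved the number of genes higher at P7 than at E17.5 in CX to 3 and the number higher in CB than in CX at E17.5 to 1. It also turned HIP against CX at E17.5 for Nrxn2 (0.017) and Nrxn3 (0.0059), and the HIP interaction of Cbln4 at the first step (0.081) and the second (-0.00287). With RLE, Lrrtm1 from P7 to the adult in HIP was 0.0035 (0.0035 with DESeq2) and the HIP interaction of Nrxn3 at the second step 0.0106. None of the values that changed sign was a call. With a replicate block, Cbln2 passed the 2-fold minimum in CX to P7 (1.03) and in HIP to the adult (-1.10), and without the mouse block Cbln2 in CB against CX at E17.5 did not (0.79). The cause of these shifts was not tested.

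Leaving out single mice, the counts with the larger relative shifts ranged as follows. From P7 to the adult in CX, 0 to 1 rose (0 without adult WT replicate 4) and 1 to 2 fell (1 without P7 WT replicate 4 or adult WT replicate 1). At E17.5, 1 to 4 were higher in CB than in CX, with 1 without WT replicate 4, and at P7, 1 to 2 were lower in HIP than in CX, with 2 without WT replicate 5. Interactions gave 0 to 1 higher in HIP at the first step (1 without E17.5 WT replicate 1), 1 to 2 lower in HIP at the second (2 without adult WT replicate 4) and 1 to 2 lower in CB at the second (2 without adult WT replicate 3). Other counts shifted less in relative terms. From E17.5 to P7, 4 to 6 rose in CX and 4 to 5 in HIP, and 2 to 3 fell in HIP from P7 to the adult. Against CX, 7 to 8 were lower in CB at P7 and 2 to 3 lower in HIP in the adult. The CB interaction at the second step gave 3 to 5 higher. Uncalled values that changed sign were HIP against CX at E17.5 for Nrxn2 (-0.16 to 0.0659) and Nlgn3 (-0.0859 to 0.18), HIP against CX at P7 for Nlgn1 (-0.0065 to 0.0484) and CB against CX in the adult for Nrxn3 (-0.00054 to 0.20). The same held for HIP interactions at the first step for Nrxn3 (-0.36 to 0.0598) and Cbln4 (-0.21 to 0.0948), and at the second for Nrxn3 (-0.0851 to 0.065), Nlgn2 (-0.17 to 0.0368) and Cbln4 (-0.15 to 0.13). Counting error weighs most on Cbln2 in adult CB, where the lowest library held 3 counts.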

Other observations

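The 2 adult mice whose genotype is given differently by the labels and the study's sample list were not used. Of their 54 values over the 9 genes and 3 regions, 50 lay inside the range of the other adult mice of both genotypes, 2 above it and 2 below it.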
